A study of Mus musculus with 6 samples.

Results

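The genes described here are 46 interferon-stimulated genes of the mouse, chosen by symbol from a list of well-known interferon targets, among the 28822 gene identifiers of the deposited count table. All 46 were found and all 46 were expressed enough to be tested. By the interferon they are best known to respond to, 38 were grouped as type I interferon-induced and 8 as interferon-gamma-induced, although many respond to both. RNA was sequenced from 6 samples, 3 treated with BW723C86, an agonist of the serotonin receptor 5-HT2B, and 3 with its vehicle DMSO. In both groups the culture was a Transwell, in which a porous membrane separates an upper from a lower chamber, and the lower chamber held HT22, a line of mouse hippocampal neurons kept for 2 h without oxygen and glucose to mimic ischaemia. The labels name bone marrow-derived macrophages (BMDMs, macrophages grown from mouse marrow precursors), while the design text also allows BV2 microglia, a cell line. The question was what 5-HT2B agonism does to expression in the upper chamber. Strain, dose, treatment time and whether replicates are separate cultures or mice are all not given in the sources used here. A p-value thus measures the spread among these samples, which may be technical only.

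Interferons are secreted proteins that warn cells of viruses and other intracellular microbes. Type I interferons bind the IFNAR receptor and, through the kinases JAK1 and TYK2, activate a complex with STAT2 and IRF9 that binds the interferon-stimulated response element (ISRE) of target genes. Interferon-gamma binds the IFNGR receptor and acts through the gamma-activated site (GAS) of its targets. The products of the induced genes sense foreign nucleic acids, degrade RNA, block viral entry and release, or attack the vacuoles in which microbes live, and macrophages keep a basal level of many of them.

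Total counts per library ran from 58841307 to 75931615. Levels are given in CPM, counts scaled to a common effective library total, at which 3 counts correspond to 0.0386 to 0.0523 CPM, counting error only. All 16 macrophage markers were detected and tested: 10 rose and 5 fell, where 42% of all tested genes passed. Their summed levels were 43745 to 44572 CPM in DMSO and 41816 to 42568 CPM with BW723C86. Most of the sum was Lyz2 (means 32877 and 29407 CPM), which hides changes such as the fall of Itgam (2088 to 976 CPM) and the rise of Csf1r (738 to 1063 CPM). Markers of other myeloid cells differed between the groups: 10 of 10 tested neutrophil markers of 13 fell (summed 2634 to 2712 CPM in DMSO, 709 to 814 CPM with BW723C86), as did 10 of 11 monocyte markers (6511 to 6588 and 1799 to 1901 CPM). Of 10 markers of plasmacytoid dendritic cells, which make much type I interferon, 7 were tested, 1 rose and 2 fell (summed 93.3 to 97.9 and 106.8 to 112 CPM). The median log2 fold change of those tested was -0.285, and 6 of the 10 were under 1 CPM in both groups. Siglech, too low to be tested, had no count in the 3 DMSO libraries and 9, 9 and 14 counts in BW723C86 replicates 1 to 3. These are few counts, and fewer fragments if a fragment is worth several counts. Of 12 neuronal markers, 9 were in the table, 3 were tested and 2 rose (14.5 to 16.3 and 29.8 to 34.9 CPM), and Map2, Nefl and Dcx were at 0 in every library. The part of these cells in the results below was not tested, and in bulk samples fewer cells of a type and less RNA per cell cannot be told apart. BW723C86 replicate 2 stood farthest from its group (chi-square per degree of freedom 8.84 and 6.06 against its replicates, with counts divided by 4, and 2.45 to 2.76 for the other pairs within a group).

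The interferon-stimulated genes did not move as a block. With BW723C86, 18 of 46 rose, 9 fell and 19 did not pass the test (edgeR's quasi-likelihood test, adjusted p under 0.05 over all tested genes). Of all 15567 tested genes, 42% passed, 21.3% higher and 20.7% lower. With scaling by library totals alone, 17 rose and 14 fell, where 43.1% of all tested genes passed. Without BW723C86 replicate 2, 32 of the 46 passed, 19 higher and 13 lower, and the share of all tested genes that passed was 45.1%. The median log2 fold change (BW723C86 over DMSO) of the members was 0.22, against 0.0042 over all tested genes, and the range ran from -1.63 for Ifitm3 to 2.42 for Ifi44. In all, 6 members rose and 3 fell by at least 2-fold among those past the test, where 8.45% of all tested genes did so in either direction. The CPM of the groups did not overlap for 34 of 46 members, against 52.3% of all tested genes.

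**Figure D1:**
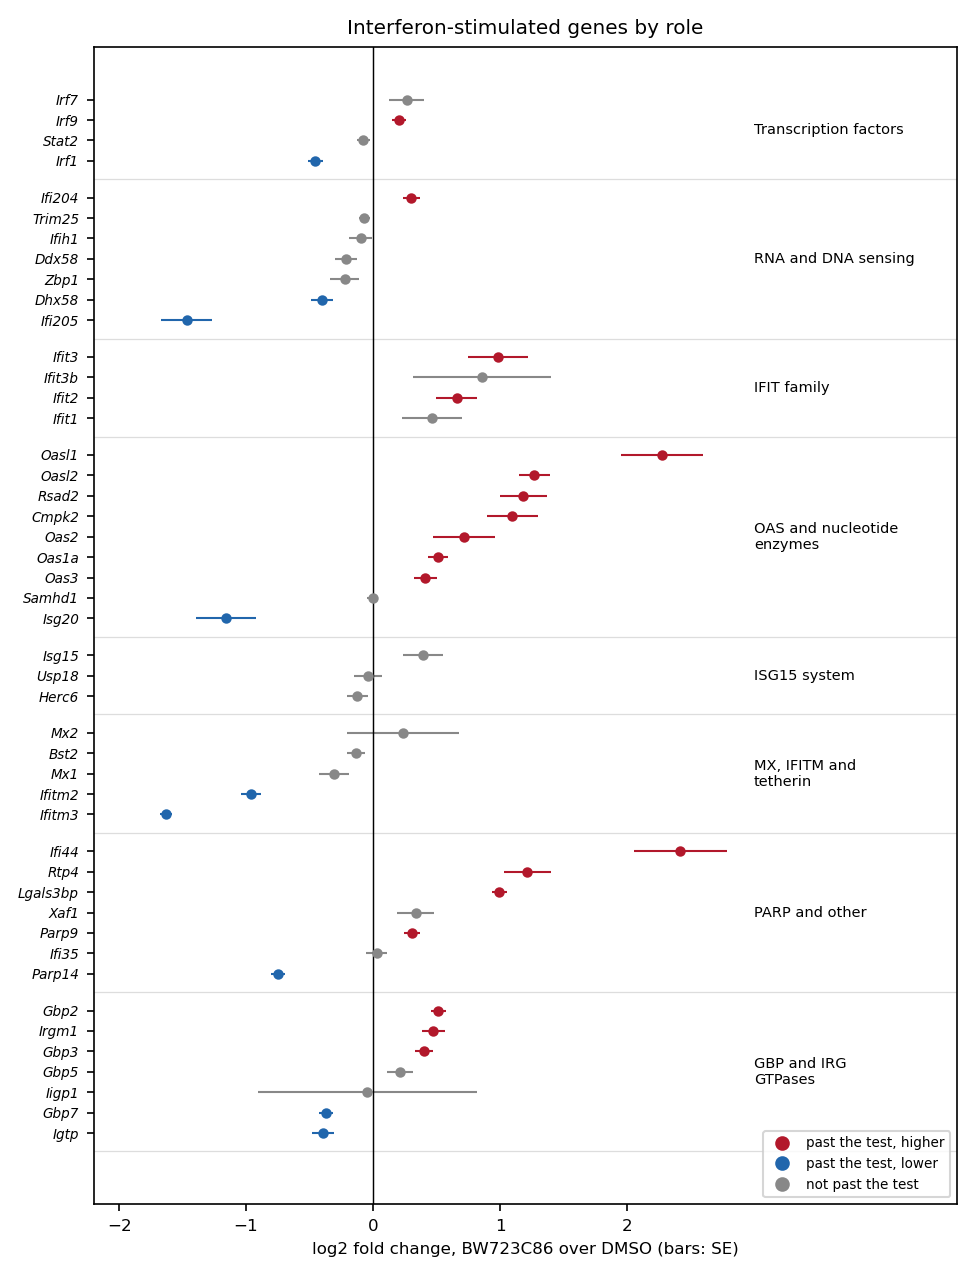
Log2 fold change of each of the 46 interferon-stimulated genes, BW723C86 over DMSO, with its standard error (3 samples per group), grouped by role; red points passed the test as higher, blue points as lower, grey points did not pass. The IFIT and OAS genes lie to the right of 0, Ifitm2 and Ifitm3 to the left, and the GBP and IRG GTPases on both sides.

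Split by level, the members gave different counts. Of the 14 members under 5 CPM in both groups, 7 rose and 2 fell, with a median log2 fold change of 0.79. Of tested genes at that level 20% passed, 10.3% higher and 9.71% lower, and their median was 0.0146. Of the 32 members with at least 5 CPM in a group, 11 rose and 7 fell, with a median of -0.02. There 53.1% of all tested genes passed, 26.9% higher and 26.2% lower, so the 18 called of 32 are a share near the background. The low members rest on few counts, and a sequenced fragment may be worth several counts, since the value 4 is more frequent in the table than 3 or 5. With counts divided by 4, 44 members were tested and all 27 calls were kept.

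**Figure D2:**
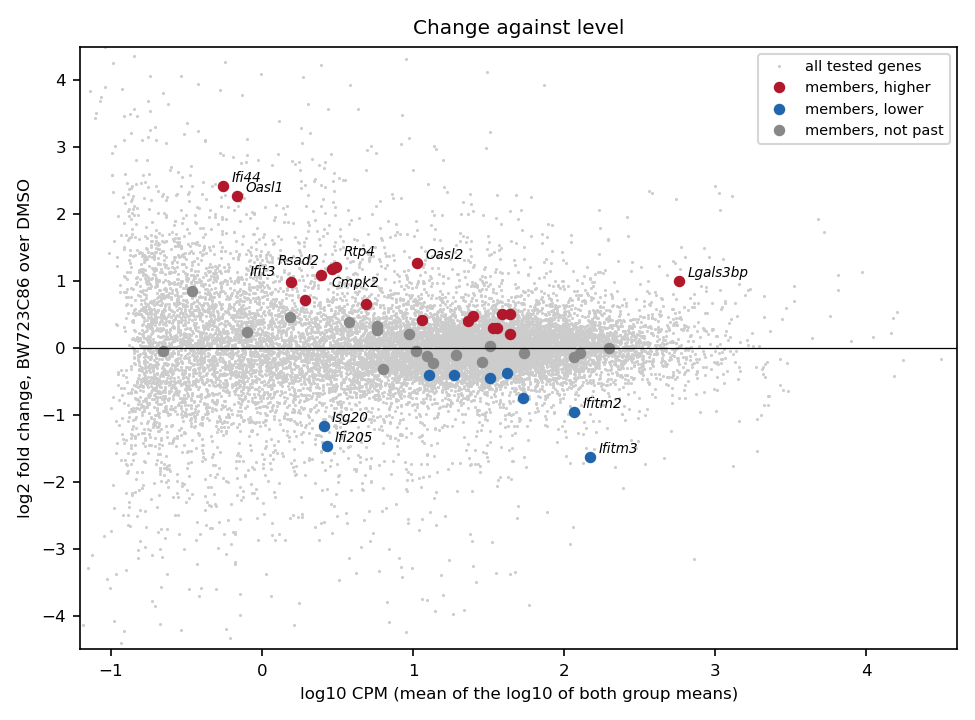
Log2 fold change (BW723C86 over DMSO) against level (log10 CPM) for all tested genes in grey and the 46 members in colour, red higher, blue lower and dark grey not past the test; 60 genes lie beyond the axes. Most members at the left, of low level, lie above 0, and those called at the right, of 10 CPM and more, lie on both sides.

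The summed level of all 46 members was 1918 to 1946 CPM in the DMSO libraries and 2015 to 2148 CPM in the BW723C86 libraries. Lgals3bp, Ifitm2 and Ifitm3, chosen for this after their values were seen, made up much of it. Without these 3 genes the sums were 1101 to 1106 CPM and 1091 to 1127 CPM, which overlap. Per kilobase of merged exons, the highest level in DMSO was that of Ifitm3, at 384 CPM per kb, followed by Ifitm2 at 248, Lgals3bp at 144 and Bst2 at 136. With BW723C86 the order was Lgals3bp at 287 CPM per kb, then Ifitm2 at 128 and Ifitm3 and Bst2 at 124 each. The 38 type I members gave 15 higher and 6 lower (median log2 fold change 0.25). The 8 interferon-gamma members gave 3 higher and 3 lower (median 0.08), and their summed level was 180 to 185 CPM in DMSO and 179 to 193 CPM with BW723C86. Called were 55.3% of the type I and 75% of the interferon-gamma members, against 42% of all tested genes and 53.1% of those of at least 5 CPM. Whether the 2 classes differ was not tested.

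The promoters of these genes were searched for the letters of the elements named above, in RefSeq windows (GRCm38.p6) from 250 bases before to 50 bases after each gene's start. The ISRE core was searched as GAAA, any 2 bases and GAAA again, which on the other strand is TTTC, any 2 bases and TTTC. The GAS core was searched as TTC, any 3 bases and GAA, which is the same on both strands. Windows were found for 35 of the 46 members. An ISRE core stood in 20 of these 35 (57.1%), against 3.99% of 27025 genes with a window, and a GAS core in 11 (31.4%), against 9.55%. Matches of both kinds overlapped in Bst2 and Ifitm3. Among members with a window, the ISRE core stood in 7 of 14 that rose, 5 of 7 that fell and 8 of 14 that did not pass. The median log2 fold change was 0.3 for the 20 members with it and 0.26 for the 15 without it. The GAS core stood in 2 of 14 that rose, 5 of 7 that fell and 4 of 14 that did not pass. These counts describe letters and not bound sites.

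The next stretches carry the ISRE core, in capitals, with up to 20 bases on either side, 5′ to 3′ along the gene, and are shown because members with nearly the same core went in different directions. The capitals in Isg15 are 3 overlapping matches. Rsad2, Oas3, Ifit3 and Gbp2 rose, Gbp7 and Ifitm2 fell, and Isg15 and Stat2 did not pass. They lie at chr12:26456543-26456592 (Rsad2, minus strand), chr5:120777705-120777754 (Oas3, minus strand), chr19:34583387-34583436 (Ifit3, plus strand), chr3:142620584-142620633 (Gbp2, plus strand), chr3:142530263-142530312 (Gbp7, plus strand), chr7:140955978-140956027 (Ifitm2, minus strand), chr4:156200855-156200904 (Isg15, minus strand) and chr10:128270256-128270305 (Stat2, plus strand) of GRCm38.p6.
Rsad2: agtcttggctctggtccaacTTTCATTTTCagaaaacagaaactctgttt
Oas3: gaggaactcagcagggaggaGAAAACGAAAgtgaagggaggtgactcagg
Ifit3: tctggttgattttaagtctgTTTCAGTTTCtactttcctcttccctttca
Gbp2: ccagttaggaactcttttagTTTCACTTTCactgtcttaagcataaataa
Gbp7: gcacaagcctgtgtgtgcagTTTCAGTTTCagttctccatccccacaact
Ifitm2: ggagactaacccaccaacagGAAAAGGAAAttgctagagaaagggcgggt
Isg15: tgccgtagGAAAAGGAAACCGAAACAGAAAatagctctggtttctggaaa
Stat2: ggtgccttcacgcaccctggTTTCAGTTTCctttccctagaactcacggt

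The GAS core, in capitals, is shown for the 3 interferon-gamma-induced members that fell. It also stood in Gbp5, of the same class, which did not pass, and in Oas1a and Ifit2, which rose. The stretches lie at chr11:53769904-53769952 (Irf1), chr3:142530229-142530277 (Gbp7, which has 2 matches) and chr11:58199491-58199539 (Igtp), each on the plus strand of GRCm38.p6.
Irf1: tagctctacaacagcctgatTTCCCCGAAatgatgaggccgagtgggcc
Gbp7: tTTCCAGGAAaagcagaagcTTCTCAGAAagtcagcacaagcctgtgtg
Igtp: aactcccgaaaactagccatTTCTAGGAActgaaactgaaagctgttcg

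Among the transcription factors of the response, changes went in both directions, with log2 fold changes from -0.45 to 0.26. Irf9 (ENSMUSG00000002325), the DNA-binding subunit of the type I complex, was at 40.6, 41.5 and 40.3 CPM in DMSO replicates 1 to 3 and at 48.4, 46.8 and 45.8 CPM in BW723C86 replicates 1 to 3. Every BW723C86 library lay above every DMSO library, and Irf9 rose (log2 fold change 0.20, SE 0.05, adjusted p = 0.0077). With scaling by library totals alone it did not pass (0.13, adjusted p = 0.074). Its partner gene Stat2 (ENSMUSG00000040033) was at 54, 54.6 and 57.7 CPM in DMSO and 53.5, 51.7 and 52.5 CPM with BW723C86. The Stat2 groups did not overlap, but the test was not passed (adjusted p = 0.27, log2 fold change -0.08, SE 0.05). With scaling by library totals alone it did, at -0.15 (adjusted p = 0.039).

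Irf1 (ENSMUSG00000018899), a factor that interferon-gamma induces and whose GAS core is shown above, fell. Its level was 39.2, 37.5 and 37.2 CPM in DMSO and 28.5, 28.1 and 26.6 CPM with BW723C86. The groups were well apart (log2 fold change -0.45, SE 0.06, adjusted p = 4.7e-05). Irf7 (ENSMUSG00000025498), which amplifies type I interferon transcription, was at 5.61, 5.54 and 4.74 CPM in DMSO and 7.26, 6.1 and 5.73 CPM with BW723C86. Here the groups lay close together without overlap and the test was not passed (log2 fold change 0.26, SE 0.14, adjusted p = 0.14).

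The OAS family and the nucleotide enzymes gave 7 higher, 1 lower and 1 not past of 9, where 21.3% of all tested genes rose and 20.7% fell. OAS proteins make short oligoadenylates that activate the ribonuclease RNase L, and OAS-like proteins are their relatives. Oasl2 (ENSMUSG00000029561) was at 6.21, 8.34 and 5.92 CPM in DMSO and 15.9, 17.1 and 16.2 CPM with BW723C86. Its lowest BW723C86 library lay far above its highest DMSO library (log2 fold change 1.27, SE 0.12, adjusted p = 2.8e-06). Oasl1 (ENSMUSG00000041827), known to repress translation of Irf7, had counts of 24, 15 and 28 in DMSO and 103, 101 and 76 with BW723C86. That was a rise from 0.306 ± 0.0556 to 1.49 ± 0.268 CPM (SD, n = 3 per group), from a level at the lower end of what was tested (log2 fold change 2.27, SE 0.32, adjusted p = 8.3e-05).

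Oas1a (ENSMUSG00000052776), an oligoadenylate synthetase, was at 36, 39.1 and 35.7 CPM in DMSO and 58.1, 46.2 and 53.6 CPM with BW723C86. It rose (log2 fold change 0.51, SE 0.08, adjusted p = 0.00018), with BW723C86 replicate 2 nearest to DMSO. Of the 100-base windows of its longest transcript, 40.9% also occur in transcripts of Oas1g, so that reads may be split between these copies. Oas1g, outside the 46, rose too (log2 fold change 0.68, adjusted p = 0.00038). Its relatives Oas1b (0.05, adjusted p = 0.9) and Oas1c (0.09, adjusted p = 0.67), also outside the 46, did not pass. Oas3 rose from 9.92 ± 0.27 to 13.2 ± 0.761 CPM (adjusted p = 0.0022). Oas2 rose from 1.51 ± 0.287 to 2.48 ± 0.692 CPM (log2 fold change 0.72, adjusted p = 0.031). That call rested on single libraries: it was lost without BW723C86 replicate 3 (0.46, adjusted p = 0.18) and without DMSO replicate 1 or 3 (adjusted p = 0.11 in each).

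Rsad2 (ENSMUSG00000020641), encoding viperin, which makes a chain-terminating nucleotide that stops viral polymerases, was at 1.79, 1.69 and 2.3 CPM in DMSO and 4.94, 4.3 and 3.94 CPM with BW723C86. It rose in all 3 libraries above the DMSO range (log2 fold change 1.18, SE 0.18, adjusted p = 0.00017). Cmpk2, its direct neighbour in the RefSeq gene order and the gene of a mitochondrial nucleotide kinase, rose alongside it. Its levels were 1.74, 1.82 and 1.44 CPM in DMSO and 3.59, 4.23 and 2.85 CPM with BW723C86 (log2 fold change 1.10, SE 0.20, adjusted p = 0.0007). Isg20 (ENSMUSG00000039236), encoding an RNA exonuclease, went the other way. It was at 4.45, 4.08 and 2.96 CPM in DMSO and 2.06, 1.9 and 1.17 CPM with BW723C86, without overlap (log2 fold change -1.16, SE 0.24, adjusted p = 0.0015). Samhd1 (ENSMUSG00000027639), which breaks down deoxynucleotides, stood at 199 ± 2.48 and 199 ± 5.18 CPM with overlap (adjusted p = 0.95).

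**Figure D3:**
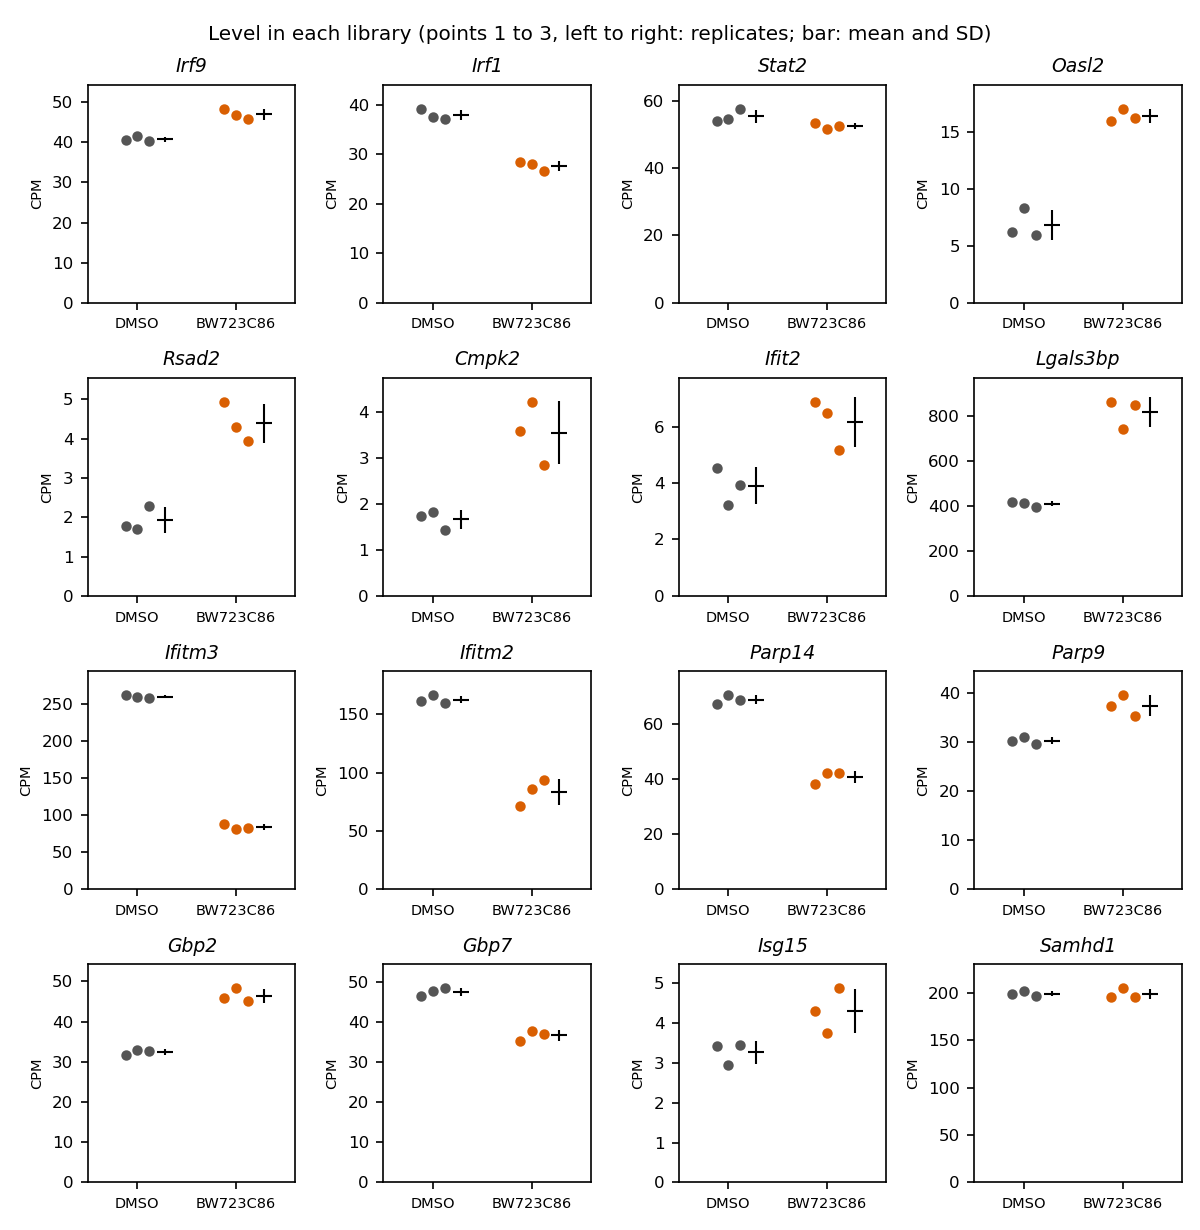
CPM of 16 members in each library, with grey points for DMSO and orange points for BW723C86 replicates 1 to 3 from left to right, and a bar for the mean with its SD; each axis starts at 0. Oasl2, Rsad2, Cmpk2 and Lgals3bp are higher with BW723C86 in every library, Ifitm3, Ifitm2, Parp14, Irf1 and Gbp7 lower in every library, and the Samhd1 libraries overlap.

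IFIT proteins bind viral RNA and block its translation. In this family 2 of 4 genes rose and 2 did not pass, all at low level. Of all tested genes 21.3% rose. Ifit2 (ENSMUSG00000045932) was at 4.53, 3.23 and 3.95 CPM in DMSO and 6.87, 6.46 and 5.19 CPM with BW723C86, and rose without overlap (log2 fold change 0.66, SE 0.16, adjusted p = 0.0054). Ifit3 (ENSMUSG00000074896) was at 1.35, 0.912 and 1.03 CPM in DMSO and 1.94, 2.03 and 2.57 CPM with BW723C86 (log2 fold change 0.98, SE 0.24, adjusted p = 0.0049). Both genes were higher in every BW723C86 library. Ifit1 was at 1.31, 1.11 and 1.46 CPM in DMSO and 2.06, 1.88 and 1.44 CPM with BW723C86 and did not pass, with replicate 3 within the DMSO range (log2 fold change 0.46, SE 0.24, adjusted p = 0.14). Ifit3b was at 0.249 ± 0.0964 and 0.452 ± 0.246 CPM (adjusted p = 0.23). Ifit3b is a near copy of Ifit3: 27.4% of its 100-base transcript windows occur in Ifit3, 31.7% of those of Ifit3 occur in Ifit3b, and the stretch with the ISRE core shown for Ifit3 is the same in Ifit3b at 50 of 50 bases. The split of reads between them is therefore uncertain.

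None of the 3 genes of the ISG15 system passed by edgeR (adjusted p = 0.066 to 0.82), DESeq2 or limma-voom, and 1 of them, Isg15, had an unadjusted p under 0.05 by edgeR (0.0294). Isg15 (ENSMUSG00000035692) encodes a ubiquitin-like protein that is attached to other proteins and was at 3.42, 2.93 and 3.44 CPM in DMSO and 4.29, 3.74 and 4.86 CPM with BW723C86. Its groups did not overlap (log2 fold change 0.39, SE 0.16, adjusted p = 0.066), and it passed without BW723C86 replicate 2 (0.47, adjusted p = 0.039). Usp18, which removes ISG15 and restrains the type I receptor, was at 10.1, 11.5 and 10.2 CPM in DMSO and 11.9, 9.11 and 10.1 CPM with BW723C86 (adjusted p = 0.82). The Usp18 values of the groups overlapped. Herc6, the ligase that attaches ISG15 in mice, was at 12.4, 12.9 and 13.6 CPM in DMSO and 12.1, 11.7 and 11.8 CPM with BW723C86 (log2 fold change -0.12, SE 0.08, adjusted p = 0.27).

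Among the proteins that restrict virus entry and release, 2 of 5 genes fell and none rose. Of all tested genes 20.7% fell, and 26.2% of those of at least 5 CPM. Ifitm3 (ENSMUSG00000025492), whose membrane protein blocks fusion of viruses in endosomes, was at 262, 260.3 and 259 CPM in DMSO and 88.3, 81.4 and 82.9 CPM with BW723C86. This was the smallest adjusted p among the members, with the groups about 3.09-fold apart (log2 fold change -1.63, SE 0.05, adjusted p = 2.3e-11). Ifitm2 (ENSMUSG00000060591), its close relative in the same gene cluster, was at 162, 166 and 160.2 CPM in DMSO and 71.5, 86.4 and 93.4 CPM with BW723C86. It fell too, with more spread among the BW723C86 libraries than among the DMSO libraries (log2 fold change -0.96, SE 0.08, adjusted p = 1.3e-06). Transcripts of other genes hold 34.9% of the Ifitm2 windows. Most monocyte and neutrophil markers given above fell too, and so did 5 of 16 macrophage markers, of which 10 rose. A link of any of these to Ifitm2 or Ifitm3 was not tested.

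Bst2 (ENSMUSG00000046718), encoding tetherin, which holds budding viruses at the cell surface, was at 126, 124 and 118 CPM in DMSO and 123, 97 and 115 CPM with BW723C86. The libraries overlapped and the test was not passed (log2 fold change -0.14, SE 0.07, adjusted p = 0.16), although it was without BW723C86 replicate 1 (-0.22, adjusted p = 0.022) and with scaling by library totals alone (-0.21, adjusted p = 0.017). Mx1, a GTPase gene against influenza-like viruses, was at 6.65, 7.44 and 6.9 CPM in DMSO and 5.39, 5.96 and 5.59 CPM with BW723C86. It lay at the threshold (log2 fold change -0.31, SE 0.12, adjusted p = 0.051) and passed under 4 of 15 alternatives, among them counts divided by 4 (-0.30, adjusted p = 0.049). Mx2 was at 0.728 ± 0.159 and 0.861 ± 0.532 CPM, with wide overlap (adjusted p = 0.7).

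Genes for sensing of RNA and DNA gave 1 higher, 2 lower and 4 not past. The share called, 42.9%, is near the 42% of all tested genes and below the 53.1% of those of at least 5 CPM. Ifi205 (ENSMUSG00000054203), of the p200 family of DNA-binding proteins, was at 4.66, 4.06 and 4.63 CPM in DMSO and 1.15, 1.9 and 1.76 CPM with BW723C86. It had the largest fall by fold among the sensing genes (log2 fold change -1.47, SE 0.20, adjusted p = 7e-05). Ifi204 (ENSMUSG00000073489), of the same family and gene cluster, rose. Its levels were 32.3, 31.2 and 33.9 CPM in DMSO and 39.4, 42.9 and 37.8 CPM with BW723C86 (log2 fold change 0.30, SE 0.07, adjusted p = 0.0022). The neighbouring p200 genes Ifi211, Mndal and Ifi207 share 16.8% of its transcript windows.

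Of the cytosolic RNA helicases, Dhx58, encoding LGP2, fell. It was at 21.7, 20.2 and 22.5 CPM in DMSO and 15.1, 15.5 and 18.1 CPM with BW723C86, without overlap (log2 fold change -0.40, SE 0.09, adjusted p = 0.0021). Ddx58, encoding RIG-I, was at 31, 27.1 and 33.7 CPM in DMSO and 26.5, 28.7 and 24.1 CPM with BW723C86, which overlap (log2 fold change -0.21, SE 0.09, adjusted p = 0.068). Ddx58 passed with scaling by library totals alone (-0.29, adjusted p = 0.018), without DMSO replicate 2 (-0.29, adjusted p = 0.024) and without BW723C86 replicate 2 (-0.29, adjusted p = 0.012). Ifih1, encoding MDA5, was at 19.8 ± 2.09 and 18.5 ± 1.13 CPM (adjusted p = 0.42). Trim25, the ubiquitin ligase that activates RIG-I, was at 131 ± 1.56 and 125 ± 2.94 CPM (adjusted p = 0.22). Zbp1, a sensor of Z-form nucleic acid that can start necroptosis, was at 14.7 ± 1.94 and 12.6 ± 1.48 CPM (adjusted p = 0.13). Without BW723C86 replicate 2, Trim25 (-0.10, adjusted p = 0.024) and Zbp1 (-0.34, adjusted p = 0.027) passed as lower, Trim25 also with scaling by library totals alone (-0.14, adjusted p = 0.021).

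Among the remaining type I members, 4 of 7 rose, 1 fell and 2 did not pass. Of all tested genes 42% passed, and of those of at least 5 CPM 53.1%. Lgals3bp (ENSMUSG00000033880), encoding a secreted glycoprotein that binds galectin-3, was the most abundant member by CPM in both groups. It was at 419, 413 and 396 CPM in DMSO and 862, 742 and 847 CPM with BW723C86, so that each treated library lay far above DMSO (log2 fold change 1.00, SE 0.06, adjusted p = 2e-08). Rtp4 (ENSMUSG00000033355), encoding a Golgi chaperone of membrane receptors, was at 1.84, 2.35 and 1.86 CPM in DMSO and 3.89, 4.81 and 5.35 CPM with BW723C86, without overlap (log2 fold change 1.22, SE 0.18, adjusted p = 0.00014). Ifi44 (ENSMUSG00000028037) had the largest fold of all members and low counts, 25, 11 and 15 in DMSO and 79, 95 and 64 with BW723C86. Its level rose from 0.232 ± 0.0776 to 1.26 ± 0.158 CPM (adjusted p = 0.00016, log2 fold change 2.42, SE 0.37).

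Parp14 and Parp9, genes of ADP-ribosyltransferases with 1 protein-coding gene between them, went in opposite directions. Parp14 (ENSMUSG00000034422) fell, from 67.3, 70.5 and 68.8 CPM in DMSO to 38.4, 42.2 and 42.2 CPM with BW723C86 (log2 fold change -0.75, SE 0.06, adjusted p = 2.5e-07). Parp9 (ENSMUSG00000022906) rose, from 30.2, 31.1 and 29.7 CPM to 37.5, 39.6 and 35.4 CPM (adjusted p = 0.0015, log2 fold change 0.31, SE 0.06). Neither gene's groups overlapped. Xaf1, a pro-apoptotic gene, was at 5.15 ± 0.752 and 6.51 ± 0.73 CPM (adjusted p = 0.082). Ifi35 was at 32.2 ± 2.12 and 32.9 ± 3.79 CPM (adjusted p = 0.82), and neither of these 2 genes passed.

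The GBP and IRG GTPases, which interferon-gamma induces and which coat and break the vacuoles of intracellular microbes, were split. Here 3 of 7 rose, 2 fell and 2 did not pass, where 42% of all tested genes and 53.1% of those of at least 5 CPM passed. Gbp2 (ENSMUSG00000028270) was at 31.6, 33 and 32.8 CPM in DMSO and 45.9, 48.3 and 45.1 CPM with BW723C86 (log2 fold change 0.52, SE 0.06, adjusted p = 9e-06). Gbp3 (ENSMUSG00000028268) was at 20.6, 19.2 and 20.2 CPM in DMSO and 28.3, 25.9 and 25.1 CPM with BW723C86 (log2 fold change 0.40, SE 0.07, adjusted p = 0.00055). Both were higher in every treated library. Gbp7 (ENSMUSG00000040253), next to Gbp3 in the same cluster on chromosome 3, was lower in every treated library. It was at 46.5, 47.9 and 48.5 CPM in DMSO and 35.3, 37.9 and 37.1 CPM with BW723C86 (log2 fold change -0.37, SE 0.06, adjusted p = 0.00013). Transcripts of other genes, Gbp3 among them, hold 10.2% of its windows. Gbp5, which neighbours Gbp7 on its other side, was at 8.7 ± 0.182 and 10.1 ± 1.1 CPM, short of the threshold (adjusted p = 0.13).

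Of the IRG genes, Irgm1 (ENSMUSG00000046879), a regulator that keeps IRG proteins off the cell's own membranes, rose. It was at 21.1, 19.3 and 22.6 CPM in DMSO and 31.7, 30.6 and 25.4 CPM with BW723C86 (log2 fold change 0.47, SE 0.09, adjusted p = 0.00089). Igtp (ENSMUSG00000078853), a related regulator, fell, from 14.6, 14.4 and 14.9 CPM to 11.6, 11.6 and 10.2 CPM (adjusted p = 0.0026, log2 fold change -0.40, SE 0.09). The groups of each gene were separate. Iigp1, an effector GTPase that macrophages express strongly after interferon-gamma, had counts of only 12, 12 and 23 in DMSO and 0, 16 and 24 with BW723C86 (adjusted p = 0.98).

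Of 21 interferon genes listed, 6 were in the table and none was expressed enough to be tested. Ifna7, Ifna13, Ifnk and Ifng had no count in any library. Ifnb1 had no count in 5 libraries and 3 counts in BW723C86 replicate 3. Ifnz had 3, 2 and 3 counts in DMSO and 5, 3 and 2 with BW723C86, which overlap. By counting error alone, a count of 0 allows a level of up to 0.0386 to 0.0523 CPM in a library. This limit is higher if a fragment is worth several counts.

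The receptors and their kinases gave 3 higher, 2 lower and 4 not past of 9. That is 55.6% called, against 42% of all tested genes and 53.1% of those of at least 5 CPM. The type I receptor genes Ifnar1 and Ifnar2 were at 81.6 ± 2.66 and 111 ± 3.67 CPM in DMSO and at 76.3 ± 2.9 and 107 ± 4.47 CPM with BW723C86. Neither passed (adjusted p = 0.14 and 0.52), although Ifnar1 did without BW723C86 replicate 2 (-0.14, adjusted p = 0.012) and with scaling by library totals alone (-0.17, adjusted p = 0.023). Ifngr1, the ligand-binding chain of the interferon-gamma receptor, fell from 166, 163 and 165 CPM to 116, 119 and 119.5 CPM (adjusted p = 1.2e-06, log2 fold change -0.48, SE 0.04). Ifngr2, the other chain, rose from 112 ± 3.78 to 125 ± 1.6 CPM (log2 fold change 0.15, adjusted p = 0.014), and did not pass with scaling by library totals alone (0.08, adjusted p = 0.2) or without DMSO replicate 2 or 3 or BW723C86 replicate 3 (adjusted p = 0.083, 0.077 and 0.078). The kinase gene Jak1 fell (-0.21, adjusted p = 0.0016) and Tyk2 rose (0.26, adjusted p = 0.0011).

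Of 9 further STAT and IRF genes, 2 rose, 3 fell and 4 did not pass. The share called was 55.6%, against 42% of all tested genes and 53.1% of those of at least 5 CPM. Irf4 and Irf5, factors of macrophage polarisation, rose by log2 fold changes of 0.49 and 0.42 (adjusted p = 3.8e-06 and 8.7e-05). Irf2, which opposes Irf1 at shared sites, fell (-0.22, adjusted p = 0.0093), but did not pass without DMSO replicate 1 (-0.18, adjusted p = 0.065).

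The genes that sense microbes upstream of interferon, with their adaptors, were split evenly, 5 higher, 5 lower and 5 not past of 15. Called were 66.7%, against 42% of all tested genes and 53.1% of those of at least 5 CPM. Tlr9, the endosomal receptor for unmethylated DNA, rose from 20.9 ± 1.18 to 56.4 ± 2.98 CPM (adjusted p = 1.7e-09, log2 fold change 1.44, SE 0.07). Tmem173, encoding the DNA-pathway adaptor STING, rose from 83 ± 1.65 to 134 ± 5.06 CPM (log2 fold change 0.69, adjusted p = 9.1e-08). Tlr4, the receptor for bacterial lipopolysaccharide, fell from 179 ± 6.86 to 102 ± 7.82 CPM (-0.81, adjusted p = 1.5e-07). Of 10 regulators, most of them negative, 3 rose, 4 fell and 3 did not pass, which is 70% called against the same background shares. Nlrc5, also known as an activator of MHC class I genes, rose from 16.6 ± 0.325 to 29.2 ± 0.866 CPM (log2 fold change 0.81, adjusted p = 5.4e-07). The phosphatase gene Ptpn2, which switches off JAK and STAT proteins, fell by 0.58 on the log2 scale (adjusted p = 7.4e-06) and Usp15 by 0.39 (adjusted p = 5.7e-05). Across all 43 tested pathway genes, 13 rose and 14 fell, with a median log2 fold change of -0.04. That is 62.8% called, against 42% of all tested genes and 53.1% of those of at least 5 CPM.

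**Figure D4:**
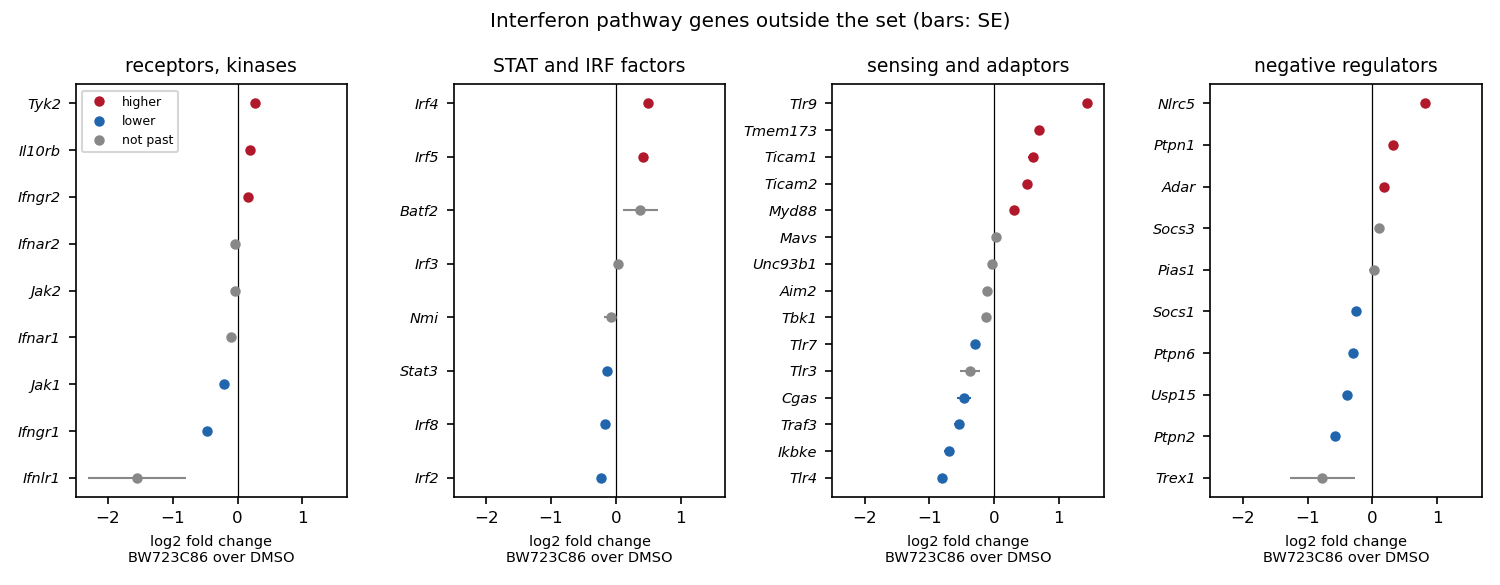
Log2 fold change (BW723C86 over DMSO, with SE, 3 samples per group) of 42 of the 43 tested interferon pathway genes that are not among the 46, in 4 panels by role; red points passed the test as higher, blue as lower, grey did not pass. Each panel holds points on both sides of 0, with Tlr9 farthest to the right at 1.44.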

How the data were processed

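Poly(A) RNA of 6 samples was made into paired-end libraries that mark strand, per the labels' protocols. The submitters' processing notes name edgeR, fastp, HISAT2 and StringTie, and the builds GRCh38 and GRCm39. Their versions and order, and the strand setting, are all not given in the sources used here, so overlapping and antisense genes are uncertain. What the authors deposited is a table of estimated counts by gene, already whole, and rounding changed nothing. Symbols for 27005 of 28822 identifiers came from GENCODE M21, of another build, which also gave merged exon lengths and shared transcript windows. Promoter sequences came from RefSeq (GRCm38.p6).

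The members and lists were chosen with earlier results of these data known. Genes were tested in edgeR 4.0.16 (R 4.3.3) by its two-sided quasi-likelihood test with TMM scaling, a robust fit, the default filter by group and all 6 samples. P-values were adjusted by Benjamini-Hochberg over 15567 genes, with a threshold of 0.05. The procedure was also run on simulated counts in which few genes were changed. In the data 42% of tested genes were called, so that run cannot show how the scaling does here. Values in each library were given for the transcription factors, in every other role for up to 4 members of smallest p and any against their role's majority, and those of Cmpk2 and Parp9 were added after their values were seen. Of the pathway lists, up to 3 genes of smallest p per list and a fixed panel were named. The alternatives were RLE, upper quartile and library-total scaling, no filter, at least 5 CPM in 3 libraries, counts divided by 4, limma-voom (limma 3.58.1), DESeq2 1.42.0, a replicate block and leaving out each library. No pair of replicates agreed within sampling noise, and all 6 samples were used separately. The values of 1 pathway gene are not reported here.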

Additional observations from a re-analysis of the deposited data

How the results depend on the processing

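The 27 calls among the members were all kept under RLE and upper quartile scaling, DESeq2, limma-voom, no filter and counts divided by 4. The same-numbered samples did not deviate together (r = 0.0193, -0.0341 and 0.0224). With 3 samples per group, this cannot exclude that same-numbered samples were prepared as pairs. With the replicate number as a block, 27 members and 6179 of all genes passed. With scaling by library totals alone, 26 of the 27 calls were kept, 14 members were lower and the members' median log2 fold change was 0.146. Requiring at least 5 CPM in 3 libraries left 32 members, of which 11 were higher, 13 of type I were called and the median was -0.0162. Under that filter 55.5% of all tested genes passed. Leaving out each library in turn gave 26 to 32 members called, 17 to 19 higher, 9 to 13 lower, 20 to 26 of type I, 6 of interferon-gamma, 25 to 30 pathway genes, 34 to 45 further interferon-stimulated genes, 5387 to 7153 genes in all and a median of 0.168 to 0.259.

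Direction turned for 5 of the 46 members, none of which passed. Ifi35 was at -0.046 with library totals alone and at -0.0251, -0.00889 and -0.044 without DMSO replicate 3, BW723C86 replicate 1 and BW723C86 replicate 3 (leave-one-out up to 0.105). Samhd1 was at 0.00142, 0.00131 and 0.0015 with upper quartile scaling, the 5 CPM filter and counts divided by 4, and at 0.00331 and 0.00477 without DMSO replicate 2 and BW723C86 replicate 1 (leave-one-out down to -0.0423). Usp18 was at 0.0191 and 0.03 without DMSO replicate 2 and BW723C86 replicate 2 (down to -0.153), Iigp1 at 0.251 and 0.52 without DMSO replicate 3 and BW723C86 replicate 1 (down to -0.901), and Mx2 at -0.346 without BW723C86 replicate 1 (up to 0.584). The causes were not tested. Few counts limit Ifi44, Oasl1, Ifit3b, Iigp1 and Mx2.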

Other observations

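A further list of 87 interferon-stimulated genes outside the 46 was examined too. Of 81 tested, 21 rose, 19 fell and 41 did not pass, and the median log2 fold change was 0.07. The share called was 49.4%, against 42% of all tested genes and 53.1% of those of at least 5 CPM. At least 2-fold among those past the test, 5 fell and 3 rose, where 8.45% of all tested genes did so in either direction. Ly6a, encoding the surface antigen Sca-1, fell from 230.2, 222 and 217 CPM in DMSO to 15.8, 15.6 and 15.5 CPM with BW723C86 (edgeR log2 fold change -3.84, adjusted p = 1.8e-14). Of the IFITM relatives, Ifitm6 fell from 56.9 ± 2.41 to 4.37 ± 0.276 CPM (-3.70) and Ifitm1 from 506 ± 11.7 to 118 ± 4.12 CPM (-2.09), so that Ifitm1, Ifitm2, Ifitm3 and Ifitm6 were all lower. Slfn1, of the Schlafen family of growth regulators, fell from 62.9 ± 2.14 to 9.15 ± 0.379 CPM, and Cd274, encoding the checkpoint ligand PD-L1, from 297 ± 7.22 to 216 ± 13.9 CPM.

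Ifi27l2a rose from 5.04, 5.59 and 4.63 CPM in DMSO to 17.8, 15 and 17 CPM with BW723C86 (log2 fold change 1.71, adjusted p = 4.7e-08). Gbp8, of the GBP family, rose from 14.3 ± 0.38 to 28.9 ± 2.74 CPM. Its relatives Gbp4, Gbp6, Gbp9, Gbp10 and Gbp11 on this list did not pass (adjusted p = 0.27 to 0.74). Tap1, a subunit of the peptide transporter of MHC class I, rose from 72.9 ± 3.87 to 111 ± 6.77 CPM. Shisa5 rose from 452 ± 8.36 to 651 ± 36.3 CPM and Nampt, encoding an enzyme of NAD synthesis, from 149 ± 2.57 to 209.7 ± 14.1 CPM.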
